A study of Mus musculus with 61 samples.

Results

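Nefl, Nefm, Stmn2, Dcx and Gap43, 5 genes of the neuronal cytoskeleton and of axon growth, were followed across 61 RNA sequencing libraries of sorted mouse retinal cells. The members were taken by gene symbol, and all 5 were found among the 15149 genes used. Nefl and Nefm encode the light and medium neurofilament subunits, Stmn2 and Dcx encode proteins that act on microtubules, and Gap43 encodes a protein of the growth cone membrane. Values are normalised read counts, reads per gene divided by a size of the library, on which 1 read was worth 0.056 to 0.215 depending on the library.

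The libraries fell into 5 groups. DBA/2J mice, which carry a mutant Gpnmb allele and disperse iris pigment, gain eye pressure and become glaucomatous as they age, gave 7 libraries at 9 months with nicotinamide at 500 mg per kg per day. The same strain gave 25 libraries at 9 months on water and 10 libraries at 4 months on water. D2-Gpnmb+ mice, which share that background but carry a working Gpnmb allele, gave 9 libraries at 9 months and 10 at 4 months, all on water. Retinas came from eyes without glaucomatous axon loss on staining of the optic nerve. The sort took Thy1.2-positive cells free of Cd45.2, Cd11b, Cd11c, Cd34 and GFAP staining, which the labels name retinal ganglion cells. Nicotinamide is a form of vitamin B3 and a precursor of NAD. The labels give neither the sex of each library nor its animal, and a p-value here therefore measures only how these libraries vary, which may be technical.

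Neurofilaments are the intermediate filaments of neurons. The light subunit can start a filament by itself, the medium and heavy subunits join it, and their amount in the axon goes with its diameter. In the retina, neurofilament genes are known mainly from ganglion cells, whose axons form the optic nerve, and from some horizontal cells. Stmn2 (stathmin 2, SCG10) binds tubulin dimers and is enriched in growth cones. Dcx (doublecortin) binds and stabilises microtubules in migrating and young neurons, and in rat retina it is known to persist in adult horizontal cells. Gap43 is attached to the membrane of growth cones and is a classic marker of growing and regenerating axons.

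The stretches of sequence that attach Gap43 and Stmn2 to membranes are shown, since these anchors are what the 2 gene products share. They are the starts of the coding regions in GENCODE transcripts (build GRCm38, written 5′ to 3′), with cysteine codons in capitals, because cysteines near the amino end of both proteins carry the fatty acid anchor.
Gap43 (chromosome 16, minus strand): atgctgTGCTGTatgagaagaaccaaacag
Stmn2 (chromosome 3, plus strand): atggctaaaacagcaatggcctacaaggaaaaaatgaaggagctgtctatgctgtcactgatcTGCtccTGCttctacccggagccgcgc
The first 10 codons of Gap43 held cysteine codons at positions 3 and 4, counted from the start codon, and the first 30 codons of Stmn2 held them at positions 22 and 24.

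Dcx was the member with the largest log2 fold change in both comparisons that include nicotinamide, and its promoter is shown for that reason. Both of the 2 start sites listed by RefSeq (GRCm38.p6) lie on the minus strand. The 250 bases before 1 of them (chrX:143933220-143933469) read as follows, with the only TATAAA match in capitals.
Dcx promoter: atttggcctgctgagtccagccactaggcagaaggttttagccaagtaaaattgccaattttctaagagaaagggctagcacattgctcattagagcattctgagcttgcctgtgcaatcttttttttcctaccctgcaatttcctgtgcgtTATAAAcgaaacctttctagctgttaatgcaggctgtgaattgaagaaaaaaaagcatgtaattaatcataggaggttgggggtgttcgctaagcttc
The match began 98 bases before the start site. TATAAA occurred on either strand in 13.6% of 32851 RefSeq promoter windows of 300 bases. In such windows CCAAT occurred in 37.4%, CANNTG in 72.3% and GGGCGG in 35.7%, each searched on both strands. The windows of 300 bases around both starts, which overlap each other, held TATAAA and CCAAT and had no match to CANNTG or GGGCGG. Of the 5 members, only Dcx had an entry in the promoter table used.

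In the GENCODE annotation, Nefl (ENSMUSG00000022055.7) spans chr14:68083863-68089095 on the plus strand and Nefm (ENSMUSG00000022054.11) spans chr14:68082590-68124846 on the minus strand. Nefl therefore lies inside the span of Nefm on the opposite strand. Whether reads were counted by strand is not given in the sources used here, so reads in a shared stretch may not be told apart. Whether exons of Nefl and Nefm overlap was not examined. Stmn2 (ENSMUSG00000027500.10) lies at chr3:8509360-8561606, Dcx (ENSMUSG00000031285.14) at chrX:143855842-143933311 and Gap43 (ENSMUSG00000047261.9) at chr16:42248442-42340651.

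Reads per library ran from 5133114 to 19501444. Many ganglion cell genes were low beside the most abundant genes of other retinal cells, though levels of different genes do not measure shares of RNA by cell type. Over the 61 libraries the ganglion cell genes Thy1 and Rbpms averaged 29.4 ± 18.7 and 11.1 ± 4.60 (SD), and Sncg, Pou4f1 and Slc17a6 were at 0 in 7, 21 and 24 libraries. The rod gene Gnat1 averaged 3796, and the rod gene Nr2e3 averaged 37.3. Jam2, with a mean of 102.7, made up 58.1% of the summed level of the 12 ganglion cell markers in the table. In the first 2 of 3 stretches of table columns, called blocks 1, 2 and 3 here, all libraries are of 9 months on water. Block 1 holds 6 DBA/2J and 4 D2-Gpnmb+ libraries and block 2 holds 16 and 2, while block 3 holds 3 and 3 together with every 4-month and every nicotinamide library. What the blocks stand for is not given in the labels, and treatment and strain follow column order inside block 3 too. Library 8 of the 9-month D2-Gpnmb+ group, in block 2, stood apart with 7.93 for Xist, the RNA of the inactive X chromosome, where the next lowest library had 4077. Limma fold changes over all blocks, group means and correlations between members are given with and without it where they rest on it. Values without block 1 and the nearest genes were found with it included.

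Per kilobase of exon, Nefl was the most abundant member over all libraries and Dcx the least. Mean level per kb of all annotated exons was 3.31 for Nefl, 1.87 for Gap43, 0.506 for Nefm, 0.382 for Stmn2 and 0.242 for Dcx. Per kb of the longest coding transcript the means were 3.31 for Nefl, 2.00 for Gap43, 1.03 for Stmn2, 0.795 for Nefm and 0.338 for Dcx. The order of Nefm and Stmn2 thus depended on the length used, and the other places did not. All members were low in reads: median counts per group ran from 5 reads for Dcx in 9-month DBA/2J on water to 195 reads for Nefl in the nicotinamide group. Dcx had 0 reads in 10 of 61 libraries, Nefm in 7, Stmn2 in 2, Nefl in 1 and Gap43 in none. A count of 0 allows up to 3 reads, and differences near that level could not be seen.

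**Figure D1:**
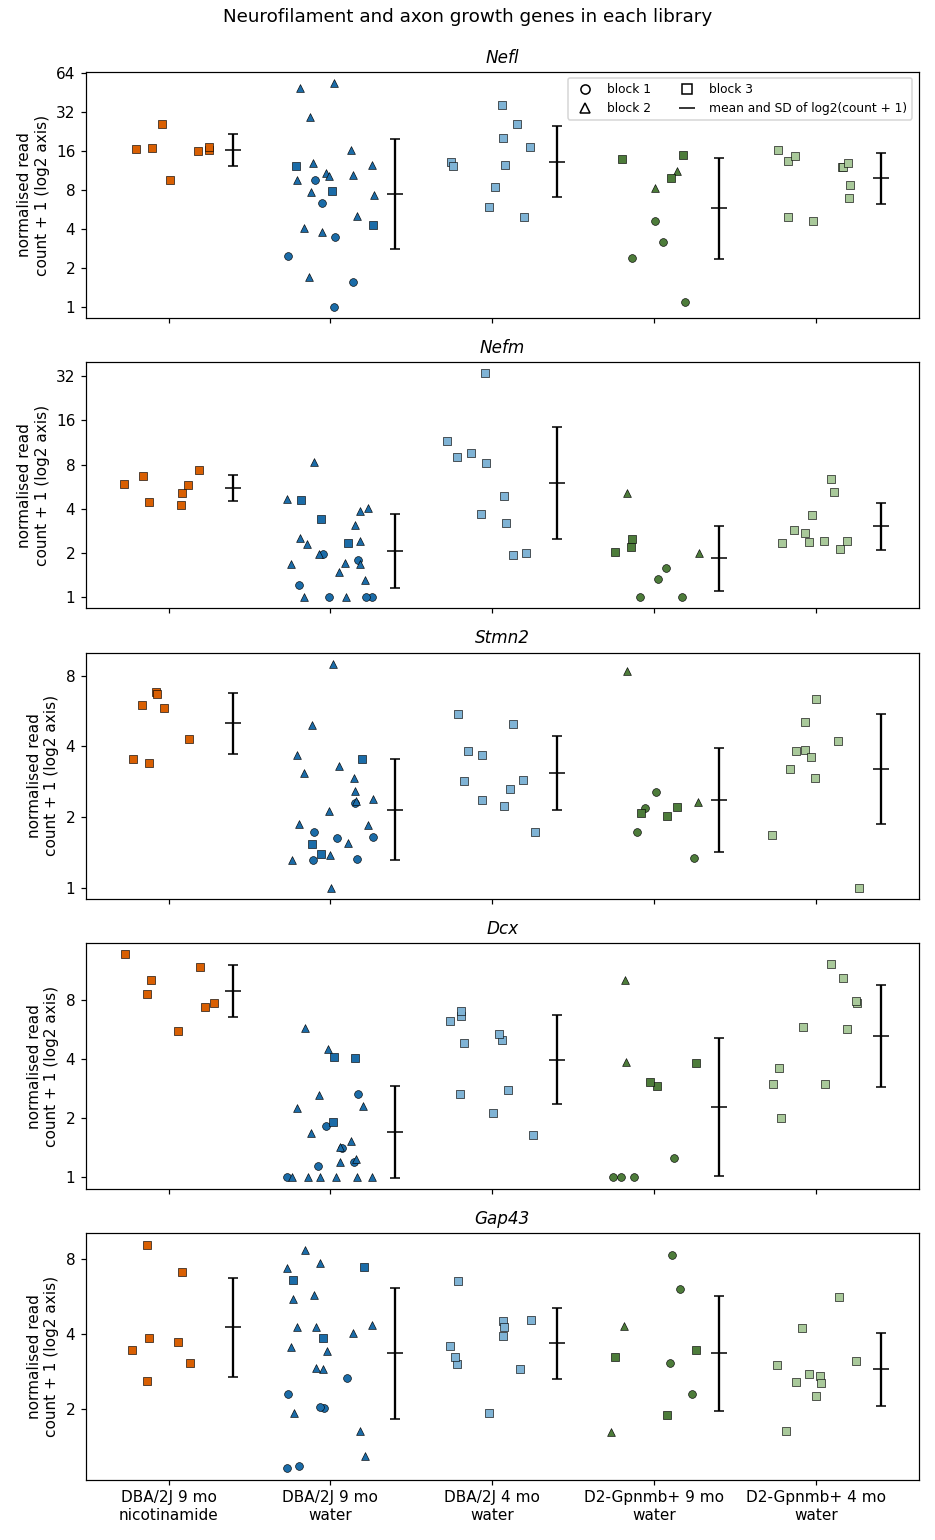
Normalised read count plus 1 (log2 axis) of each gene in every library of the 5 groups. Marker shape gives the block of table columns, and the bar at the right of each group is the mean ± SD of log2(count + 1). For Dcx the 7 nicotinamide libraries (4.55 to 12.7) overlapped with 4-month D2-Gpnmb+ (0.987 to 11.2) and lay above 24 of 25 libraries of 9-month DBA/2J on water, and 1 library of 4-month DBA/2J stood alone for Nefm (32.4).

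Nicotinamide in 9-month DBA/2J mice was compared with water at the same age, which asks what the vitamin changed in ageing eyes before axon loss. Dcx, Nefm and Stmn2 rose, while Nefl and Gap43 did not pass the test. In limma on log2(value + 1), with Benjamini-Hochberg adjustment over all 13925 genes tested, 3 of 5 members were called higher and none lower. The background was 15.1% of genes called in either direction and 9.78% called higher, with 5.34% called lower. The median log2 fold change of the 5 members was 1.23, against −0.03 over all genes tested.

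Dcx ran from 4.55 through a median of 7.57 to 12.7 in the nicotinamide libraries, against 0, 0.420 and 4.74 in the water libraries. Of the 7 nicotinamide libraries, 6 lay above every water library, and 24 of 25 water libraries lay below the lowest nicotinamide library. The groups averaged 8.27 ± 2.80 and 0.988 ± 1.30 (SD, n = 7 and 25). The log2 fold change was 2.39 ± 0.30 (SE; limma adjusted p = 1.52e-05).

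Nefm ran from 3.25 through 4.78 to 6.30 with nicotinamide, against 0, 0.975 and 7.37 on water. All 7 nicotinamide libraries were above the water median, 22 of 25 water libraries were below the lowest of them, and 1 water library was above the highest. Nefm had a log2 fold change of 1.42 ± 0.31 (SE; limma adjusted p = 0.00220). With edgeR on the recovered reads it was 1.66 and lost the call (adjusted p = 0.0567).

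Stmn2 ran from 2.38 through 4.85 to 5.81 with nicotinamide, against 0, 0.873 and 7.998 on water. The groups overlapped, with 21 of 25 water libraries below the lowest nicotinamide library and 1 above the highest. This gave a log2 fold change of 1.23 ± 0.28 (SE; limma adjusted p = 0.00317).

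Nefl ran from 8.58 through 15.6 to 24.5 with nicotinamide, against 0, 6.86 and 52.3 on water. All 7 nicotinamide libraries were above the water median, but 3 water libraries were above all of them. Its log2 fold change of 1.14 ± 0.52 (SE) did not pass (limma adjusted p = 0.127). Gap43, at 1.59, 2.71 and 8.09 with nicotinamide against 0.162, 2.56 and 7.68 on water, overlapped almost entirely, with a log2 fold change of 0.34 ± 0.34 (SE; limma adjusted p = 0.524).

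The calls on nicotinamide rested on water libraries of blocks 1 and 2, since only 3 of the 25 water libraries lie in block 3 with the treated ones. Within block 3, Dcx had 0.911, 3.06 and 3.10 on water, against 4.55 to 12.7 in the 7 nicotinamide libraries. Its log2 fold change there was 1.49 ± 0.30 (SE), and the call was lost (limma adjusted p = 0.0715), as it was with block as a covariate (adjusted p = 0.690). Stmn2, with 0.388, 0.527 and 2.53 on water in block 3, had a log2 fold change of 1.36 ± 0.32 (SE; limma adjusted p = 0.0953).

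Nefm, with 1.36, 2.43 and 3.59 on water in block 3, had a smaller difference there than over all blocks, 0.73 ± 0.24 (SE; limma adjusted p = 0.170). Nefl kept its size at 1.13 ± 0.30 (SE; limma adjusted p = 0.123). Gap43, with 2.85, 5.57 and 6.40 on water in block 3, had the opposite sign, −0.43 ± 0.37 (SE; limma adjusted p = 0.605). In block 3, limma called 1 of 13352 genes tested (0.00749%), and 4 of the 5 members, all but Gap43, had an unadjusted p under 0.05, against 16.8% of all genes. Without block 1, Dcx (2.32), Nefm (1.20) and Stmn2 (1.10) kept their calls.

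**Figure D2:**
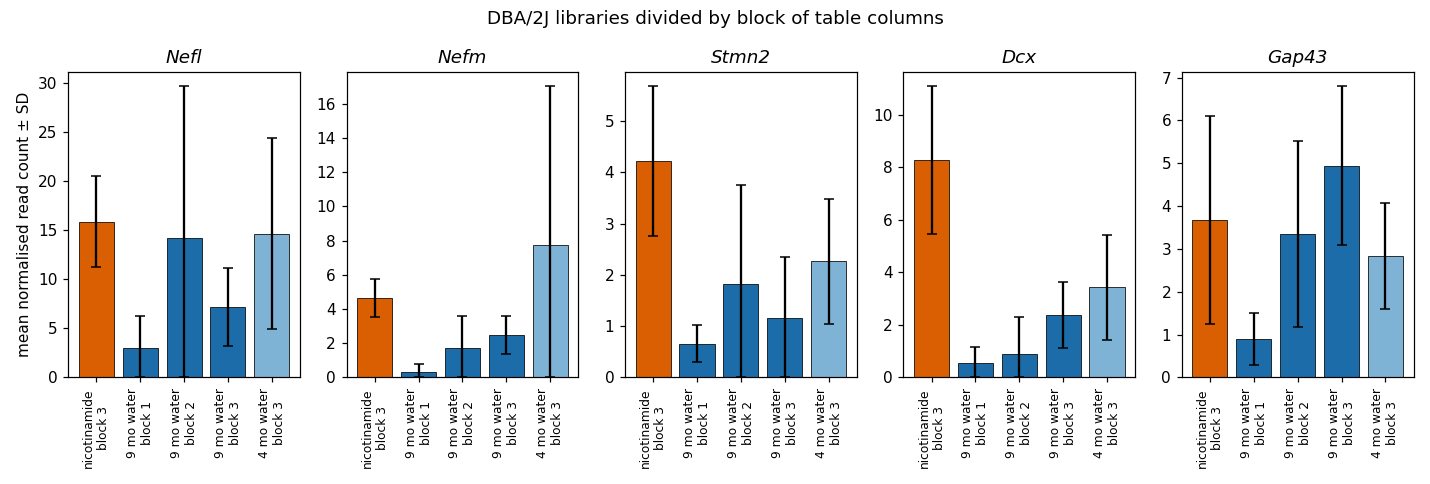
Mean normalised read count of the 5 genes in DBA/2J libraries, with the 9-month water group divided by block of table columns; error bars are SD, not drawn below 0. For Dcx and Nefm the 9-month water libraries of block 3 (means 2.36 and 2.46) sat above those of block 1 (0.533 and 0.329) and block 2 (0.901 and 1.69).

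Markers of other retinal cells moved with the members in this comparison, and their part in the result was not tested. The summed level of 9 amacrine cell markers ran from 267 to 1342 with nicotinamide, against 85.8 to 725 on water, and 7 of 9 rose. All 3 horizontal cell markers that were tested rose, with a summed level over 5 markers of 24.5 to 106.5 with nicotinamide against 1.95 to 67.7 on water. Of the 10 ganglion cell markers tested, only Ebf3 and Elavl4 rose, and the summed level of the 12 in the table ran from 138 to 247 with nicotinamide against 65.3 to 228 on water. Of 8 cone markers 7 rose, with summed levels of 1267 to 2567 with nicotinamide against 330 to 1852 on water, and of 9 Muller glia and astrocyte markers 3 fell, with 1285.5 to 2639 against 338 to 8165 on water. Of 10 bipolar cell markers Vsx1 rose, of 6 vessel markers Pdgfrb fell, and none of 10 rod markers was called. The microglial markers Csf1r (0.325 with nicotinamide against 12.9 on water) and Ptprc (0.0980 against 2.90) fell, 2 of the 3 that fell of 7 tested. Within block 3 no marker tested was called, and no microglial marker was tested there. In bulk libraries, fewer cells of a type and less RNA per cell cannot be told apart.

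Relatives of the members moved in part in the same comparison. Of 6 intermediate filament genes, only Vim, the filament of glia and vessel cells, passed, and it fell by 1.01 on the log2 scale (30.1 ± 17.8 with nicotinamide against 60.6 ± 25.2 on water). The heavy neurofilament subunit Nefh had 7.69 ± 2.85 with nicotinamide against 4.81 ± 3.74 on water (limma adjusted p = 0.117). Of 3 other stathmins, Stmn4 rose, with a log2 fold change of 1.15 (6.40 ± 2.36 against 2.56 ± 1.68 on water).

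Of 11 tested genes of the doublecortin family and of neuronal microtubules, 3 rose and 1 fell. Map1a, a microtubule protein of mature axons and dendrites, had a log2 fold change of 1.03 (limma adjusted p = 0.00142). Dclk1, a kinase with doublecortin domains, had a log2 fold change of 1.07 (limma adjusted p = 0.00222). Of 26 growth cone and regeneration genes, 4 rose and 2 fell. L1cam, an axonal adhesion molecule, had a log2 fold change of 1.75 (30.2 ± 11.4 against 9.17 ± 6.63 on water), and Plxna4, a semaphorin receptor, had one of 1.69 (44.0 ± 12.9 against 15.6 ± 10.995 on water). Within block 3 none of these relatives was called.

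Ageing in DBA/2J mice on water was compared between 9 and 4 months, which asks what changes before the optic nerve degenerates. Nefm and Dcx were lower at 9 months, and the other members did not pass. All 10 libraries of 4 months lie in block 3, where only 3 of the 25 libraries of 9 months lie. Over all blocks, age and block therefore cannot be told apart. In limma, 2 of 5 members were called lower and none higher, against a background of 22.4% of 13587 genes called in either direction and 13.2% called lower, with 9.25% called higher. The median log2 fold change of the members was −0.83, against 0.02 over all genes tested. The comparison shares its 9-month libraries with the nicotinamide comparison, so the opposite signs of the 2 sets of values are not independent.

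Nefm ran from 0 through 0.975 to 7.37 at 9 months, against 0.942, 5.51 and 32.4 at 4 months. Of the 25 libraries of 9 months, 24 lay below the 4-month median and 12 below every 4-month library. The log2 fold change was −1.54 ± 0.35 (SE; limma adjusted p = 0.00176), and edgeR gave −2.41 (adjusted p = 0.00303). The highest 4-month library stood at 32.4, with 10.6 next to it, and the call held in all 35 fits that left out 1 library each (log2 fold change −1.72 to −1.26).

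Dcx ran from 0 through 0.420 to 4.74 at 9 months, against 0.628, 3.89 and 6.03 at 4 months. Of the 25 libraries of 9 months, 14 lay below every 4-month library and 24 below the 4-month median. Its log2 fold change was −1.22 ± 0.28 (SE; limma adjusted p = 0.00209), and edgeR gave −1.80 (adjusted p = 0.0338). The call held in all 35 fits that left out 1 library each (−1.37 to −1.13). Such fits, here and for Nefm, do not part age from block.

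Nefl (0, 6.86 and 52.3 at 9 months against 3.90, 11.7 and 35.4 at 4 months) had a log2 fold change of −0.83 ± 0.46 (SE; limma adjusted p = 0.191). Its 9-month libraries reached both below and above all 4-month libraries. Stmn2 (0, 0.873 and 7.998 against 0.731, 1.86 and 4.49 at 4 months) had −0.52 ± 0.25 (SE; limma adjusted p = 0.125). Gap43 (0.162, 2.56 and 7.68 against 0.938, 2.75 and 5.52 at 4 months) had −0.13 ± 0.28 (SE; limma adjusted p = 0.778).

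Within block 3, where 3 libraries of 9 months met 10 of 4 months, limma called no member, against 0.263% of 13670 genes, and 1 of 5, Gap43, had an unadjusted p under 0.05, against 10.7% of all genes. Dcx had a log2 fold change of −0.32 ± 0.42 (SE; limma adjusted p = 0.852), and Nefm had −0.85 ± 0.72 (SE; limma adjusted p = 0.744). For Dcx, all 3 libraries of 9 months were still below the 4-month median. Gap43 had the opposite sign there, 0.64 ± 0.30 (SE; limma adjusted p = 0.456), with all 3 libraries of 9 months above the 4-month median. Without block 1, Nefm (−1.32) and Dcx (−1.15) kept their calls.

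Marker lists differed between these ages too, and their part in the result was not tested. Of 9 amacrine cell markers, 7 fell, with summed levels of 85.8 to 725 at 9 months against 202 to 1391 at 4 months. Of 3 horizontal cell markers tested, Onecut3 fell (0.755 ± 0.915 at 9 months against 1.85 ± 1.53 at 4 months), and of 9 ganglion cell markers 3 fell, led by Ebf3 and Elavl4. All 7 microglial markers tested rose, with summed levels of 0 to 168 at 9 months against 0.279 to 2.01 at 4 months. Of 9 Muller glia and astrocyte markers 4 rose, with summed levels of 338 to 8165 at 9 months against 1273 to 4396 at 4 months. Of 10 rod markers 3 rose, among them Gnat1 (6031 ± 6168 at 9 months against 1585 ± 443 at 4 months). Of 8 cone markers 2 fell (summed levels 330 to 1852 at 9 months against 774 to 1806 at 4 months), and of 10 bipolar cell markers 3 fell (2744 to 11202 against 4436 to 8367 at 4 months). No vessel marker was called (0 of 6). No marker tested within block 3 was called, and no microglial marker was tested there.

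Among relatives, the glial filament genes Vim (60.6 ± 25.2 at 9 months against 28.7 ± 14.1 at 4 months) and Gfap (6.07 ± 5.30 against 1.41 ± 1.00) were higher at 9 months. Ina, the neuronal filament alpha-internexin, was lower (70.0 ± 36.5 against 98.5 ± 17.2). Nefh had 4.81 ± 3.74 at 9 months against 6.81 ± 0.947 at 4 months (limma adjusted p = 0.0804). Stmn4 was the only one of 3 other stathmins to fall, with a log2 fold change of −0.86. Map1a (−0.89) and Tuba1a (−0.53), an alpha-tubulin of neurons, were the 2 of 11 microtubule genes that fell. Of 26 growth cone and regeneration genes, 9 fell and 3 rose. L1cam fell by 1.58 on the log2 scale (9.17 ± 6.63 at 9 months against 28.3 ± 13.8 at 4 months), and Tmsb4x, thymosin beta 4, an actin-binding protein that is also abundant in microglia, rose by 1.17. Within block 3, the neuronal filament gene Prph (peripherin) was the only relative called, as higher.

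**Figure D3:**
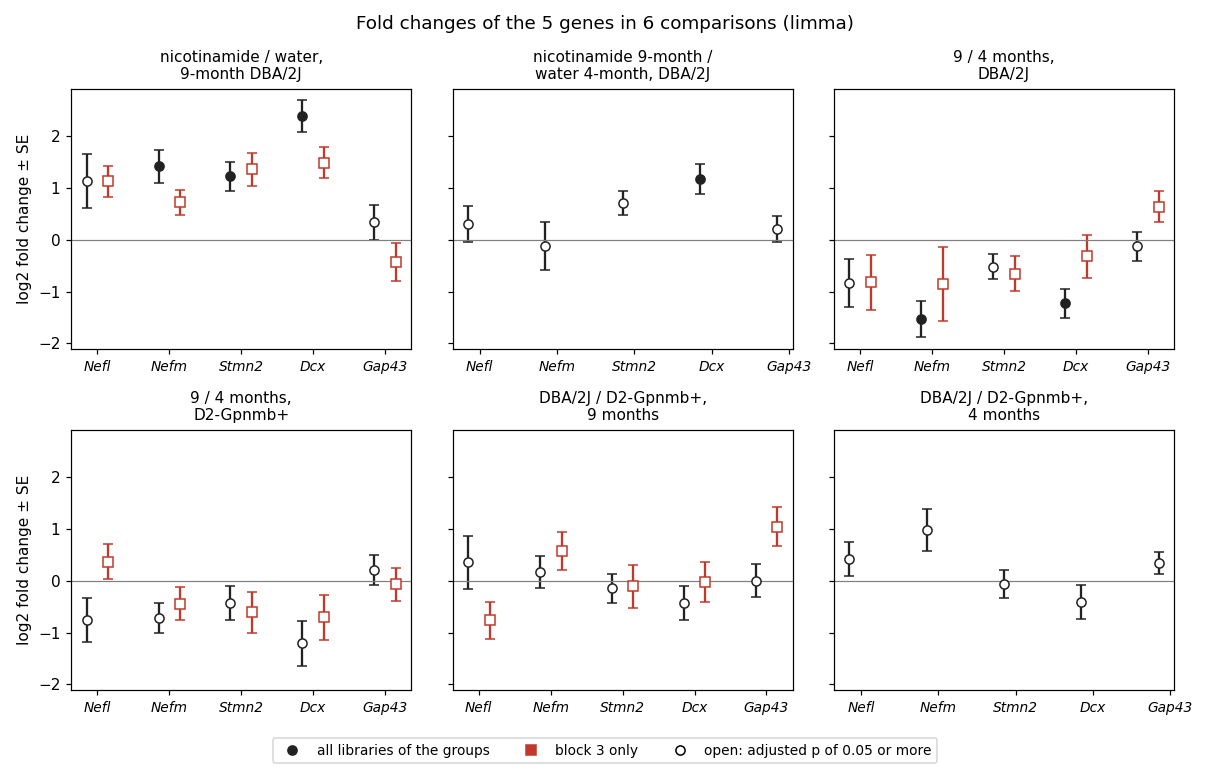
Log2 fold change ± SE of each gene in 6 comparisons, from all libraries of the groups (black circles) and from block 3 only (red squares, where the pooled fit also used other blocks); open symbols did not pass an adjusted p of 0.05. Filled symbols are Nefm, Stmn2 and Dcx for nicotinamide against water, Dcx for nicotinamide against 4 months, and Nefm and Dcx for age in DBA/2J.

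Nicotinamide-treated mice of 9 months were next set against 4-month DBA/2J mice on water, with every library in block 3. Dcx was higher in the treated old mice than in the young mice, and no other member passed. In limma 1 of 5 members was called, against a background of 1.54% of 13024 genes in either direction and 0.791% called higher, with 0.745% called lower. Dcx ran from 4.55 through 7.57 to 12.7 in the treated mice, against 0.628, 3.89 and 6.03 in the young mice. Of 7 treated libraries, 6 lay above every young library. The log2 fold change was 1.17 ± 0.29 (SE; limma adjusted p = 0.0453).

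That call was a narrow one. Leaving out 1 library at a time, it held in 6 of 17 fits, with a log2 fold change of 1.03 to 1.29 and adjusted p of 0.0212 to 0.111. It was lost in each fit without a nicotinamide library except library 8 of that group, and without libraries 4, 5, 7, 9 or 10 of the 4-month group. It was also lost with edgeR (adjusted p = 0.0620), and kept with DESeq2 (adjusted p = 0.0102).

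Stmn2 was above the young median in all 7 treated libraries (2.38, 4.85 and 5.81 against 0.731, 1.86 and 4.49), with a log2 fold change of 0.71 ± 0.23 (SE; limma adjusted p = 0.116). Nefl (0.31 ± 0.35), Gap43 (0.21 ± 0.25) and Nefm (−0.12 ± 0.47) lay within about 1 SE of 0 (limma adjusted p = 0.756, 0.762 and 0.943). The Nefm values of the treated mice (3.25 to 6.30) sat inside the range of the young mice (0.942 to 32.4).

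Here amacrine and ganglion cell markers gave no call (0 of 9 and 0 of 10). The horizontal cell genes Calb1 (13.3 ± 6.55 in treated old mice against 3.98 ± 2.06 in young mice) and Onecut3 (5.77 ± 3.05 against 1.85 ± 1.53) rose, 2 of 3 tested. The rod genes Rom1 and Pde6g (2 of 10 markers) and the cone genes Gnat2 and Pde6h (2 of 8) rose as well, and no bipolar, glial or vessel marker was called. The part of these markers in the result for Dcx was not tested. Among relatives, Map1b rose by 0.34 on the log2 scale (1193 ± 163 against 940 ± 89.5), and Mapt, which encodes tau, fell by 0.33 (87.0 ± 11.5 against 109 ± 11.2). Tmsb10, thymosin beta 10, fell by 0.53 (62.2 ± 17.98 against 87.9 ± 12.9).

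Ageing in D2-Gpnmb+ mice, the strain without glaucoma, gave no call among the members. In limma the background was 0.0232% of 12910 genes called in either direction, 3 genes in all. At an unadjusted p under 0.05, Nefm and Dcx passed and the other 3 members did not, against 30.3% of all genes, so 2 of 5 is near the background. Neither edgeR nor DESeq2 called any of the 5. Dcx ran from 0 through 1.90 to 9.09 at 9 months, against 0.987, 4.76 and 11.2 at 4 months. Its libraries overlapped, with 4 of 9 at 9 months below every 4-month library, and the log2 fold change was −1.21 ± 0.43 (SE; limma adjusted p = 0.0912). Nefm ran from 0 through 1.01 to 4.16 at 9 months, against 1.11, 1.58 and 5.43 at 4 months, with 6 of 9 libraries below every 4-month one. Its log2 fold change was −0.72 ± 0.29 (SE; limma adjusted p = 0.110).

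Nefl, Stmn2 and Gap43 had log2 fold changes of −0.76 ± 0.43, −0.44 ± 0.33 and 0.21 ± 0.28 (SE; limma adjusted p = 0.227, 0.370 and 0.633). Nefl had 0.0985, 7.28 and 13.8 at 9 months, against 3.62, 10.99 and 15.3 at 4 months. Stmn2 had 0.338, 1.18 and 7.41 against 0, 2.72 and 5.39, and Gap43 had 0.622, 2.24 and 7.28 against 0.646, 1.74 and 4.64. The 2 ages overlapped for each of these genes.

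Library 8 of the 9-month D2-Gpnmb+ group was the highest of its group for Dcx (9.09), Nefm (4.16) and Stmn2 (7.41). Without it the log2 fold changes with age were −1.48 for Dcx and −0.90 for Nefm (limma adjusted p = 0.0642 for both), and −0.66 for Stmn2, −0.83 for Nefl and 0.16 for Gap43 (adjusted p = 0.114, 0.197 and 0.716). The 4 libraries of block 1 set the low end, with Dcx at 0 in 3 of them and 0.247 in the fourth, and Nefl from 0.0985 to 3.61. Without block 1 the log2 fold changes were −0.32 for Dcx, −0.23 for Nefm and 0.21 for Nefl, with library 8 still included. In block 3, which does not hold library 8, Dcx averaged 2.25 ± 0.494 at 9 months against 5.13 ± 3.41 at 4 months (SD, n = 3 and 10). Nefm averaged 1.24 ± 0.236 against 2.25 ± 1.44 there, and Nefl 11.9 ± 2.57 against 9.63 ± 4.07.

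The age effects of the 2 strains were tested against each other by an interaction term, and no member passed (0 of 5, with a background of 0.375% of 14150 genes in either direction). The difference of the age effects, DBA/2J minus D2-Gpnmb+, was −0.82 ± 0.50 for Nefm (SE; limma adjusted p = 0.505) and −0.01 ± 0.50 for Dcx (adjusted p = 0.995). It was −0.07 ± 0.69 for Nefl, −0.08 ± 0.41 for Stmn2 and −0.34 ± 0.43 for Gap43 (limma adjusted p = 0.784 to 0.978). Without library 8 of 9-month D2-Gpnmb+ it was −0.63 for Nefm, 0.26 for Dcx and 0.15 for Stmn2, so the sign for Dcx and Stmn2 rested on that library. The SE of 0.41 to 0.69 limits what could be seen. The fall of Nefm and Dcx in DBA/2J was thus not shown to differ from the values in D2-Gpnmb+. At an unadjusted p under 0.05 none of the 5 passed, against 12.9% of all genes, nor did edgeR or DESeq2 call any.

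The strain comparison of DBA/2J and D2-Gpnmb+ mice on water, which asks what the mutant allele goes with, gave no call among the members in limma. This held at 9 months (0 of 5, background 0.0218% of 13755 genes in either direction) and at 4 months (0 of 5, background 0.25% of 12804 genes). At an unadjusted p under 0.05 there was none of the 5 at 9 months, against 13.2% of all genes, and only Nefm at 4 months, against 13.5%. Here edgeR and DESeq2 called none, though at 9 months DESeq2 gave no adjusted p for 4 of the 5, all but Nefl. The log2 fold changes at 9 months were 0.36 ± 0.51 for Nefl, 0.17 ± 0.31 for Nefm, −0.14 ± 0.28 for Stmn2, −0.42 ± 0.33 for Dcx and 0.00 ± 0.32 for Gap43 (SE; limma adjusted p = 0.601 to 0.996). Without library 8 of D2-Gpnmb+ they were 0.42 for Nefl, 0.35 for Nefm, 0.086 for Stmn2, −0.16 for Dcx and 0.05 for Gap43. Nefl spread widest, from 0 to 52.3 in 25 DBA/2J libraries and from 0.0985 to 13.8 in 9 D2-Gpnmb+ libraries. Dcx had 0 reads in 7 of 25 DBA/2J libraries and in 3 of 9 D2-Gpnmb+ libraries.

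Within block 3 at 9 months, Gap43 had 2.85, 5.57 and 6.40 in DBA/2J, against 0.895, 2.24 and 2.44 in D2-Gpnmb+. The log2 fold change of 1.05 ± 0.38 (SE) did not pass (limma adjusted p = 0.748), and limma called 0 of 12941 genes in that setting. In block 1 the order was the other way, with Gap43 at 0.896 ± 0.605 in 6 DBA/2J libraries and 3.92 ± 2.75 in 4 D2-Gpnmb+ libraries. Without block 1, Dcx had a log2 fold change of −1.24 ± 0.39 between the strains (SE; limma adjusted p = 0.159), against −0.42 over all blocks. Both values include library 8 of D2-Gpnmb+, which had the highest Dcx of its group (9.09).

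At 4 months, Nefm ran from 0.942 through 5.51 to 32.4 in DBA/2J, against 1.11, 1.58 and 5.43 in D2-Gpnmb+. Of the 10 DBA/2J libraries, 5 lay above every D2-Gpnmb+ library and 2 below. The log2 fold change was 0.99 ± 0.41 (SE; limma adjusted p = 0.292), and it was 0.71 without library 3 of DBA/2J, the one at 32.4. Dcx pointed the other way without passing, with 0.628, 3.89 and 6.03 in DBA/2J against 0.987, 4.76 and 11.2 in D2-Gpnmb+ (log2 fold change −0.41 ± 0.33, SE; limma adjusted p = 0.628). Nefl, Stmn2 and Gap43 had 0.43 ± 0.33, −0.06 ± 0.27 and 0.34 ± 0.21 (SE; limma adjusted p = 0.614, 0.949 and 0.503). No intermediate filament, stathmin, microtubule or growth cone gene on the lists was called between strains or with age in D2-Gpnmb+, and Tmsb4x was the only one called in the interaction. Within block 3 the interaction did not call Tmsb4x and called Prph instead, as higher.

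Across the 5 groups, the order of the means differed from member to member. Dcx was highest with nicotinamide (8.27 ± 2.80), then in 4-month D2-Gpnmb+ (5.13 ± 3.41), 4-month DBA/2J (3.42 ± 1.98), 9-month D2-Gpnmb+ (2.11 ± 2.89) and 9-month DBA/2J on water (0.988 ± 1.30). Stmn2 had the same order, at 4.22 ± 1.46, 2.58 ± 1.55, 2.26 ± 1.22, 1.76 ± 2.15 and 1.47 ± 1.66. Without library 8 the 9-month D2-Gpnmb+ mean was 1.06 ± 0.376 for Stmn2, which turned its last 2 places round, and 1.23 ± 1.30 for Dcx and 0.706 ± 0.562 for Nefm, which kept their places (SD, n = 8). Nefm was instead highest in 4-month DBA/2J (7.73 ± 9.30), then with nicotinamide (4.63 ± 1.12), in 4-month D2-Gpnmb+ (2.25 ± 1.44), 9-month DBA/2J on water (1.46 ± 1.68) and 9-month D2-Gpnmb+ (1.09 ± 1.26). Without library 3 the 4-month DBA/2J mean for Nefm was 4.998 ± 3.61 (SD, n = 9), still the highest.

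Nefl ran from 15.9 ± 4.65 with nicotinamide through 14.7 ± 9.73 in 4-month DBA/2J, 10.7 ± 13.3 in 9-month DBA/2J on water and 9.63 ± 4.07 in 4-month D2-Gpnmb+ to 6.69 ± 5.09 in 9-month D2-Gpnmb+. Gap43 was flattest, from 3.68 ± 2.43 with nicotinamide to 2.05 ± 1.12 in 4-month D2-Gpnmb+. The other 3 groups had Gap43 at 2.95 ± 2.22 (9-month DBA/2J on water), 2.84 ± 1.24 (4-month DBA/2J) and 2.80 ± 2.14 (9-month D2-Gpnmb+), of which 4-month DBA/2J became the lowest without its library 3 (2.54 ± 0.859). In all 20 pairs of neighbouring groups in these orders, the ranges of mean ± SD overlapped. Sorting sets groups with close means side by side, so this does not speak for groups further apart.

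The members did not move as one from library to library. After subtraction of the mean of each group within each block (9 such sets), log2 values of Nefl and Nefm had a Pearson r of 0.54 over the 61 libraries, and Nefm ranked 14 among 11254 genes by likeness to Nefl. The other 9 pairs of members had r of 0.10 to 0.35. Without library 8 of 9-month D2-Gpnmb+ it was 0.56 for Nefl and Nefm and 0.12 to 0.32 for the others. Without that subtraction Nefl and Nefm had r of 0.68, and Nefm and Dcx 0.56. These values share library, depth and sort, and are given as a description. The spans of Nefl and Nefm also overlap in the annotation, and whether any of their reads were shared was not examined.

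The genes most like each member were mostly not other members. For Dcx they were Gpr22, an orphan receptor (r of 0.72), Pcdh7, a protocadherin (0.71), Cntnap5a (0.70), Kcnip1, a subunit of potassium channels (0.70), and Slit2, a secreted axon guidance cue (0.69). For Nefm they were the glycine transporter Slc6a9 (0.63), the transcription factor Ebf3 (0.62), Zfp385c (0.61), Rbfox3, which encodes the neuronal nuclear antigen NeuN (0.60), and Cap2 (0.60). Slc6a9 and Ebf3 are also on the amacrine and ganglion cell marker lists. For Nefl they were Sgtb (0.62), Gas6 (0.60), Lrp4 (0.60), Cdk14 (0.57) and Dgcr8 (0.57).

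For Stmn2 the nearest genes were Calb1, also a horizontal cell marker (0.56), Hipk1 (0.55), Mgll (0.55), Pfkm (0.54) and Frmpd4 (0.54). For Gap43 they were Nudt11 (0.64), Fam19a5 (0.57), Spock1 (0.54), Grin2b (0.54) and Slc22a15 (0.54).

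Beside marker sums, centred in the same way, Nefl had its highest r with ganglion cell (0.54) and rod markers (0.47), Nefm with amacrine (0.48) and ganglion cell markers (0.41), and Dcx with amacrine (0.57) and horizontal cell markers (0.37). Stmn2 had its highest r with horizontal cell (0.38) and vessel markers (0.25), and Gap43 with amacrine (0.42) and horizontal cell markers (0.34). Without centring, Dcx and horizontal cell markers had an r of 0.72, and of 0.71 without library 8 of 9-month D2-Gpnmb+. Uncentred r of Dcx was also 0.60 with cone and 0.57 with amacrine markers, and −0.60 with vessel and −0.57 with Muller glia and astrocyte markers. With the remaining lists it lay from −0.34 to 0.29. Uncentred values include differences between groups and blocks. Each r is over 61 libraries that share sort and depth, and the sums rest on a few abundant genes.

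**Figure D4:**
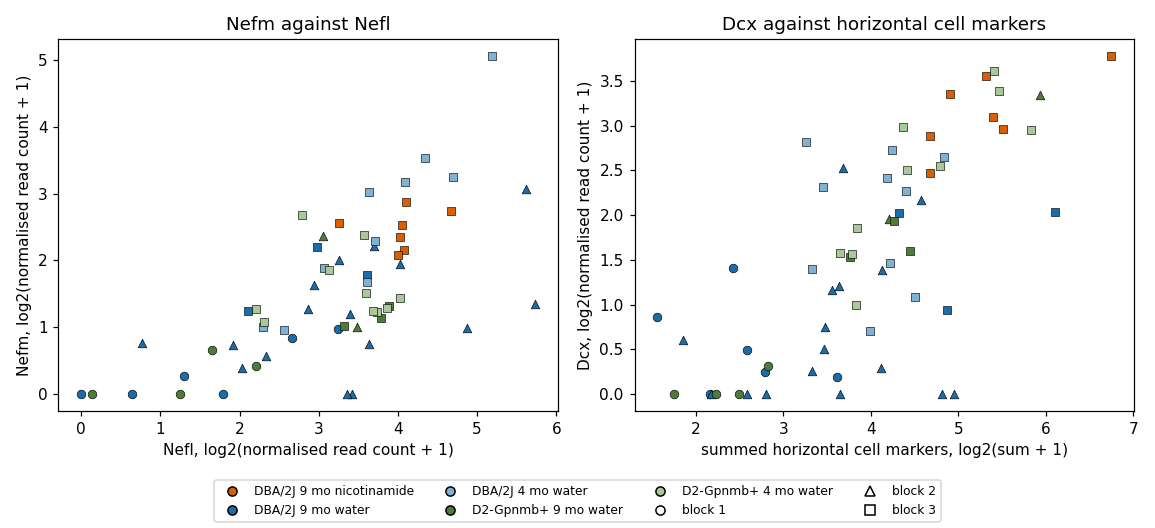
Left, log2(count + 1) of Nefm against Nefl in each of the 61 libraries (r of 0.68 without centring); right, log2(count + 1) of Dcx against the log2 of the summed level of 5 horizontal cell markers plus 1 (r of 0.72). Colour gives the group and shape the block. Nicotinamide libraries sit toward the upper right of the Dcx plot, beside some D2-Gpnmb+ libraries, and the lowest values in both plots are 9-month libraries of blocks 1 and 2.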

How the data were processed

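Per the submitters' processing notes, TopHat2 2.0.7, Bowtie2 2.0.6 and HTSeq were used with build mm10. The deposited values are a signal: gene read counts that the authors divided by a size of each library, with no log taken; the labels do not say how the size was found. In every library 100% of positive values were whole multiples of 1 read within a tolerance of 0.05, so reads could be recovered. Of 15171 rows, 22 with names turned into dates were left out. The main test was limma 3.58.1 (R 4.3.3, trended and robust) on log2(value + 1), for genes at 1 or more in enough libraries to fill the smaller group, with Benjamini-Hochberg adjustment over all genes tested and a threshold of 0.05. On this scale, folds of low genes are understated. The test was tried on simulated data first. Alternatives were edgeR 4.0.16 (quasi-likelihood) and DESeq2 1.42.0 on recovered reads, 0.5 added in place of 1, no filter, scaling by recovered totals, block as a covariate, subsets of blocks, and libraries left out. Table columns gave the group but not the single sample. Blocks 1 to 3 hold 10, 18 and 33 libraries and were drawn after values had been seen. Members and gene lists were chosen with earlier results of these data known. Named relatives are up to 2 called genes per list and comparison with the smallest adjusted p, and Ina, Nefh and Prph were added after their values were seen. The nearest genes are the 5 per member with the highest centred r among genes with a mean of at least 2. The closest 2 libraries differed by a chi-squared of 6.54 per gene, so none was counted as a duplicate. The ± values are SD over libraries or SE of limma, and the floor of 3 reads covers counting error only.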

Additional observations from a re-analysis of the deposited data

Results flagged for a closer look

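Among 20 pairs of a member and a group, 4 held a library far from the others by Dixon's criterion at the 95% level. The group of 25 libraries was not examined. For normal values chance alone reaches that level in about 1 of 20. The values here are low counts without a log, so that rate may not hold, and the flags of library 8 are not independent. Library 3 of 4-month DBA/2J had 32.351 for Nefm, against 10.6 in the next library of its group. Library 8 of 9-month D2-Gpnmb+, the one with low Xist, had 4.157 for Nefm (next 1.49), 7.405 for Stmn2 (next 1.56) and 9.094 for Dcx (next 2.88). The same library had 7.28 for Nefl and 3.31 for Gap43, inside the range of its group.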

How the results depend on the processing

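Of 578 alternative values of member log2 fold changes, 474 kept their direction and side of the threshold, 38 kept the direction and lost the call, and 66 changed sign. The cause was not tested. No sign change was of a called value except Dcx with age in DBA/2J, at 0.045 within block 3 without library 28.

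With block as a covariate the nicotinamide comparison called 0 members and 0 genes, against 3 and 2105, and within block 3 it called 0 members and 1 gene. Leaving out 1 water library of block 3 as well gave 0 to 1 members (Dcx, without library 27) and 0 to 378 genes. Gap43 had −0.43 both ways, and −0.72 to −0.24 with 1 library left out. For nicotinamide against 4 months, 0.5 added, scaling by recovered totals and edgeR each called 0 members, against 1, and DESeq2 called 499 genes, against 200.

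For age in DBA/2J, block as a covariate called 0 members and 8 genes, against 2 and 3044, and block 3 called 0 members and 36 genes. Leaving out 1 library there gave 0 members and 6 to 255 genes. Gap43 had 0.038 with edgeR and DESeq2, 0.64 with the covariate and within block 3, 0.15 without block 1, and 0.46 to 0.93 with 1 library left out. Dcx had −1.37 to 0.045 with libraries left out.

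For age in D2-Gpnmb+, where limma called 3 genes, edgeR called 1495 and DESeq2 2114. Scaling by recovered totals, the covariate, block 3 and block 3 with 1 library left out each called 0, and without block 1 it was 1. Nefl had 0.37 with the covariate and within block 3, 0.21 without block 1, and −0.83 to 0.55 with libraries left out. Gap43 had −0.065 with the covariate and within block 3, −0.091 without block 1, and −0.22 to 0.21 with libraries left out.

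For strain at 9 months, where limma called 3 genes, edgeR called 11 and DESeq2 255. Scaling, block 3, leaving out block 1 and leaving out the library with the fewest reads called 0, and leaving out libraries within block 3 gave 0 to 38. Gap43 had −0.021 with 0.5 added, −0.10 with scaling, −0.090 with the covariate and −0.043 without the library with the fewest reads. Nefl had −0.047 with the covariate, −0.77 within block 3, −0.21 without block 1 and −1.12 to 0.42 with libraries left out. Nefm had −0.10 without block 1. With libraries left out, Stmn2 had −0.53 to 0.14 and Dcx −0.21 to 0.34.

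For strain at 4 months, where limma called 32 genes, scaling called 20 and DESeq2 204, and Stmn2 had 0.066 with scaling. For the interaction, where limma called 53 genes, scaling called 215, DESeq2 284, the covariate 12, block 3 11, and the rest without block 1 137. Leaving out libraries within block 3 gave 4 to 116 genes. Nefl had 0.091 with edgeR and 0.073 with DESeq2, and Gap43 0.71 within block 3 and 0.24 without block 1. Dcx had 0.39 within block 3. With libraries left out, Dcx had 0.20 to 0.75, Gap43 −0.29 to 0.99 and Stmn2 −0.47 to 0.20.

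Scaling by recovered totals moved the median of all genes to 0.31 for age in D2-Gpnmb+, 0.24 and −0.13 for strain at 4 and 9 months and −0.36 for the interaction, and edgeR moved it to −0.12 for nicotinamide. The nicotinamide calls were 1362 higher and 743 lower in limma, 1031 and 1244 in edgeR and 1186 and 1752 in DESeq2. With age in DBA/2J they were 1257 higher and 1787 lower in limma, 1712 and 1448 in edgeR and 2192 and 1517 in DESeq2. The fits, means and correlations without library 8 of 9-month D2-Gpnmb+, without library 3 of 4-month DBA/2J and with each library left out over all blocks were chosen after the data were seen. No paired analysis was possible because the groups share no replicate numbers. Counts of a few reads per library limit the precision for Dcx, Nefm and Stmn2.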
